A study of Mus musculus with 12 samples.

Results

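The collagen genes are described here across cultured mouse embryonic stem cells. They were chosen by name and type: a protein-coding gene whose symbol is Col, a number, a and a number, each gene taken once. The rule found 44 genes among the 38310 unique genes of the deposited expression table. It used no measured value. Each of the 12 total RNA libraries is a sample of a cultured cell line, and the counts per library are whole reads per gene.

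There were 4 groups. The BRE-GFP cells carry a reporter in which a BMP response element (BRE) drives GFP. They have a mixed CBA and C57Bl/6 background and were grown in fetal calf serum with Lif on feeder cells, then sorted by GFP and the stem cell surface antigen SSEA1 into BRE-negative (3 libraries) and BRE-positive (3 libraries) fractions, collected as pairs at 3 times. The Smad1/5 fl/fl cells (FL, 2 libraries) and the Smad1/5 -/- cells (KO, 4 libraries) have a mixed CD-1, 129/Ola and C57Bl/6 background and were grown in 2i + Lif on gelatin, unsorted as far as the labels say. They come from 2 parental lines, and the sources used here do not give which library came from which line, so the fits count the 4 KO libraries as separate although lines are shared. Feeders, medium, background, line, genotype and sorting differ together between the feeder and gelatin cultures and cannot be told apart.

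Collagens are secreted or membrane proteins built from chains that wind into a triple helix. Fibrillar collagens form the tensile fibres of connective tissue and are made in quantity by fibroblasts, network collagens such as type IV form basement membranes, and other classes coat fibrils, anchor epithelia or span the cell membrane. Chains of a type usually assemble with each other in fixed proportions, each from its own gene. In cultures of embryonic stem cells, fibroblast feeders and early endoderm-like cells are known makers of collagen.

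The libraries held between 25862573 and 37319846 counts. The summed level of 5 embryonic stem cell markers (Pou5f1, Sox2, Nanog, Zfp42 and Esrrb) was 1802 to 2470 TPM (a level per transcript length, scaled alike in every library) on feeders, 3249 and 3382 in FL and 2706 to 3014 in KO. The markers did not move together. In the culture comparison below, Zfp42 (4.94-fold) and Pou5f1 (1.37-fold) were called lower on feeders. Esrrb (1.49-fold) and Sox2 (1.2-fold) were called higher, and Nanog (1.28-fold lower) was not called. Of 18 feeder fibroblast markers that are not collagens, 17 were matched. Their summed level was 122.6 to 196.2 TPM in BRE-negative, 112.7 to 183.6 TPM in BRE-positive, 29.08 and 35.96 TPM in FL and 23.02 to 30.36 TPM in KO. The first collection had the lowest sum in both sorted fractions. On gelatin the sum was mostly Fstl1, Thy1 and Mmp2. Tagln, Fbln2, Fbn1 and Pdgfrb also had enough reads there to be tested between KO and FL. Lum, Postn and S100a4 were at 0 counts except for 1 to 5 counts in FL replicate 2. Of the 17 markers, 5 and 1 were at 0 counts in FL replicates 1 and 2, and 5 to 7 in the KO libraries. Most markers thus had some reads on gelatin. The targeted genes kept reads in every KO library (Smad1 643 and 665 counts in FL and 373 to 619 in KO, Smad5 1136 and 1153 in FL and 880 to 1176 in KO). The deleted parts are not given, so these counts check nothing.

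Of the 44 collagen genes, 24 were present in both cultures, 11 in the feeder culture only, 0 in the gelatin culture only and 9 in neither. A gene was called present in a culture when it had at least 10 counts in at least 3 of its 6 libraries. The class names describe where reads were counted and not which cell made the RNA. The 11 of the feeder culture were Col1a2, Col3a1, Col4a5, Col6a1, Col6a2, Col6a6, Col8a1, Col8a2, Col16a1, Col23a1 and Col24a1. FL has only 2 libraries, so a gene with 10 counts in FL alone could not be called present on gelatin. Among the 11, Col4a5 (12 and 12 counts), Col16a1 (22 and 15) and Col23a1 (15 and 28) reached 10 counts in both FL libraries. They are thus not absent from gelatin. The 9 present in neither were Col4a3, Col4a4, Col4a6, Col9a1, Col10a1, Col15a1, Col19a1, Col25a1 and Col28a1. The highest count of any of these 9 in a library was 12, for Col4a6 in BRE-negative replicate 2. With 10 counts asked for in all 6 libraries of a culture, 16 were present in both and 16 on feeders only. Asking for 5 or 20 counts gave 30 or 19 in both and 8 or 13 on feeders only, and no setting found a collagen on gelatin only.

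Col18a1 stood far above the other members in every library. It encodes the basement membrane collagen whose fragment is endostatin, and its gene lies on chromosome 10 at 77052178 to 77166548 (GRCm38, minus strand). Its level was 80.8, 79.9 and 76.98 TPM in BRE-negative, 71.3, 84.1 and 83.1 TPM in BRE-positive, 54.2 and 53.5 TPM in FL and 60.5, 53.9, 60.9 and 60.1 TPM in KO. Every feeder library was above every gelatin library, and the sorted fractions overlapped. Col18a1 made up between 45.14% and 69.55% of the summed collagen TPM of a library. That sum was 121 to 180.6 TPM on feeders, 118.9 and 101.6 TPM in FL and 87.59 to 92.71 TPM in KO.

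Below Col18a1 the order of levels differed between the cultures. On feeders the next members were Col4a1 (17.9 ± 6.32 TPM, SD over 6 libraries), Col9a2 (6.19 ± 0.998), Col5a1 (6.16 ± 1.43) and Col4a2 (6.13 ± 2.30), of which the last 3 did not differ beyond their spread. On gelatin they were Col9a2 (3.60 to 26.0 TPM), Col4a1 (5.83 ± 1.98), Col5a1 (4.75 ± 1.17) and Col5a3 (3.88 ± 0.775). The place of Col9a2 there came from the FL libraries alone. The deposited TPM adds 1 count to each gene before scaling, so a gene with 0 counts still has a small TPM.

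**Figure D1:**
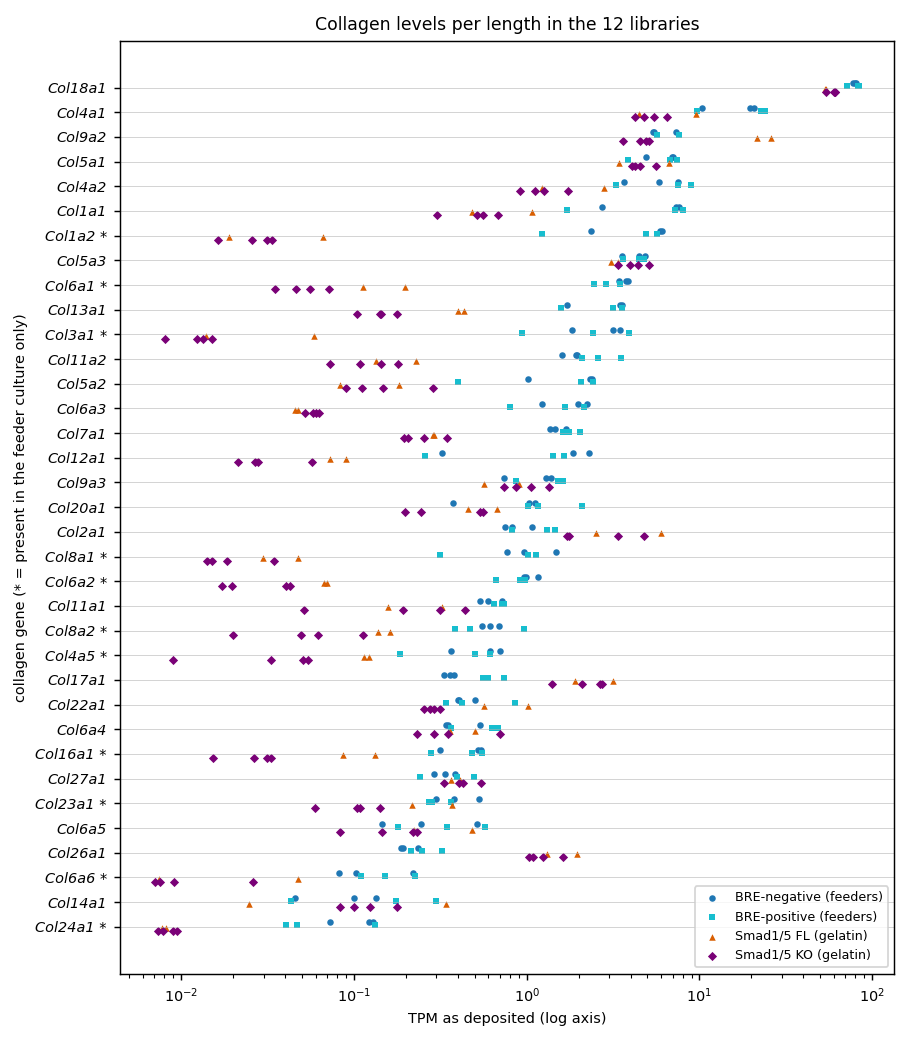
Level per transcript length (deposited TPM, log axis) of the 35 collagen genes present in at least 1 culture, 1 point per library, coloured by group. Col18a1 lies above all others in every library. An asterisk marks genes present on feeders only, whose gelatin libraries lie left of their feeder libraries except for Col23a1. For Col23a1 the cultures overlap (0.059 to 0.369 TPM on gelatin, 0.273 to 0.528 TPM on feeders).

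The first comparison set the feeder culture against the gelatin culture, with the sorted fractions of each collection added up (3 collections against 2 FL and 4 KO libraries, FL and KO weighted equally). Of 35 collagen genes tested, 23 were higher on feeders, 4 were lower and 8 did not pass the threshold of an adjusted p under 0.05 in edgeR's quasi-likelihood test. Across all genes 63.2% passed (31.5% higher, 31.7% lower), so calls of either sign were common. The median log2 fold change was 1.91 over the collagens tested and 0.0011 over all genes tested. Of the 24 genes present in both cultures, 12 were higher, 4 lower and 8 not called. All 11 genes present on feeders only were higher, which the presence rule itself makes likely.

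The fibrillar collagens held the largest differences and the clearest split between members: of 11 tested, 7 were higher on feeders, 1 was lower and 3 did not pass. Col3a1, the type III chain of soft connective tissue, had 303, 452 and 396 counts in BRE-negative and 136, 561 and 244 counts in BRE-positive libraries, against 1 and 8 counts in FL and 1, 1, 1 and 0 counts in KO. It was 191-fold higher on feeders (log2 fold change 7.58 ± 0.44, SE, adjusted p = 2.37e-07). The groups were far from overlapping, and FL replicate 2 held most of the gelatin reads. The 250 bases before its annotated start (chr1:45311288-45311537, plus strand, RefSeq windows on GRCm38.p6) are shown because Col3a1 had the largest fitted difference on counts above 0 in both cultures; capitals mark a TATAAA match.
Col3a1: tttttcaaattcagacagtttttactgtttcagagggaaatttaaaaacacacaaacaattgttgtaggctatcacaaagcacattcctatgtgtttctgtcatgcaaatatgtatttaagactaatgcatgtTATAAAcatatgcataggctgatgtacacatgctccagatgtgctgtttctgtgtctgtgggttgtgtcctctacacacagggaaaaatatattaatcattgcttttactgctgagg
The stretch holds 0 CG pairs and is 35.2% G and C, against a median of 52.4% over all promoter windows.

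Col1a1 and Col1a2, the chains of type I collagen, differed in how far they fell away on gelatin. Col1a2 was at 2.37, 5.88 and 6.05 TPM in BRE-negative and 1.22, 5.69 and 4.87 TPM in BRE-positive, and had 3 and 14 counts in FL and 4, 7, 6 and 2 counts in KO. It was 142-fold higher on feeders (7.15 ± 0.43, SE, adjusted p = 2.78e-07). Col1a1 was at 2.72, 7.27 and 7.62 TPM in BRE-negative and 1.71, 8.004 and 7.20 TPM in BRE-positive, against 1.07 and 0.480 TPM in FL and 0.682, 0.556, 0.304 and 0.512 TPM in KO. It was 9-fold higher (3.17 ± 0.38, SE, adjusted p = 3.66e-05). The ratio of Col1a1 to Col1a2, both per length, lay between 1.15 and 1.48 in the 6 feeder libraries and between 7.24 and 56.7 on gelatin. There it rests on the 2 to 14 counts of Col1a2, and Col1a1 had 27 to 93 counts.

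Type V collagen, which sits inside type I fibrils and sets their width, showed the same unequal pattern. Col5a2 was 12.5-fold higher on feeders (3.64 ± 0.42, SE, adjusted p = 2.47e-05), at 0.403 to 2.44 TPM against 0.0827 to 0.287 TPM. Its partner Col5a1 did not pass (0.33 ± 0.21, SE, adjusted p = 0.201), at 3.86 to 7.43 TPM on feeders and 3.43 to 6.67 TPM on gelatin. Neither did Col5a3 (0.22 ± 0.14, SE, adjusted p = 0.188), at 3.57 to 4.83 and 3.07 to 5.12 TPM. The cultures overlapped for Col5a1 and Col5a3 and did not for Col5a2. The ratio of Col5a1 to Col5a2 was 2.96 to 9.58 on feeders, highest in BRE-positive replicate 1, and 15.9 to 80.6 on gelatin.

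Of the type XI chains, which belong to cartilage fibrils, Col11a2 was 15.4-fold higher (3.94 ± 0.26, SE, adjusted p = 4.70e-07), at 1.61 to 3.49 TPM against 0.0726 to 0.228 TPM. Col11a1 was 2.66-fold higher (1.41 ± 0.47, SE, adjusted p = 0.021), a call that was lost without the third collection (1.38, adjusted p = 0.0607) or without FL replicate 2 (1.18, adjusted p = 0.079). Col24a1 had 58 counts in all on feeders and 0 on gelatin, which makes it at least 20.5-fold higher against a floor of 3 counts over the gelatin group. Col27a1 (-0.21 ± 0.18, SE, adjusted p = 0.34) did not pass.

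Col2a1, the main collagen of cartilage and of the early notochord, went the other way. It was at 0.751 to 1.47 TPM in the feeder libraries, 5.99 and 2.53 TPM in FL and 3.38, 4.79, 1.71 and 1.76 TPM in KO. It was 3.50-fold lower on feeders (-1.81 ± 0.42, SE, adjusted p = 0.00315), with every gelatin library above every feeder library. Of 5 chondrocyte markers 3 were tested (Acan, Comp and Matn1), 0 passed in edgeR in this comparison (1 was higher at an unadjusted p under 0.05, Acan, and DESeq2 called 1 higher), and Hapln1 had at most 3 counts in any library.

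Among the type IV chains, the network of basement membranes, Col4a1, Col4a2 and Col4a5 were tested and all 3 were higher on feeders. Col4a1 was at 10.3, 19.7 and 20.6 TPM in BRE-negative and 9.63, 22.8 and 24.1 TPM in BRE-positive, against 9.51 and 4.48 TPM in FL and 4.24 to 6.53 TPM in KO. It was 2.86-fold higher (1.52 ± 0.27, SE, adjusted p = 5.45e-04). The first collection lay near FL replicate 1, and no feeder library fell below it. Col4a2 was 3.76-fold higher (1.91 ± 0.30, SE, adjusted p = 2.57e-04), at 3.27 to 8.97 TPM against 0.921 to 2.79 TPM. These genes lie head to head on chromosome 8, Col4a1 at 11198423 to 11312826 on the minus strand and Col4a2 at 11312805 to 11449287 on the plus strand, and their ends overlap by 22 bases. The ratio of Col4a1 to Col4a2 was 2.68 to 3.38 on feeders and 3.41 to 4.90 on gelatin, where both chains thus kept nearer to a common proportion than those of types I and V.

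Col4a5 was 8.70-fold higher (3.12 ± 0.42, SE, adjusted p = 8.30e-05). Its head-to-head neighbour on the X chromosome, Col4a6, had 2 to 12 counts on feeders and 0 to 2 on gelatin. Col4a3 and Col4a4, the chains of kidney and lung basement membranes, whose starts lie 72 bases apart on chromosome 1, had at most 2 and 4 counts in any library. Of 9 markers of primitive endoderm, a known source of type IV collagen, 6 were tested and 5 were higher on feeders. Over all genes 31.5% were called higher. The 5 were Pdgfra (4.48-fold), Dab2 (7.72-fold), Gata6 (5.20-fold), Sox17 (2.45-fold) and Sox7 (1.56-fold, adjusted p between 3.31e-05 and 0.0319). Gata4 (0.57 ± 0.31, SE, adjusted p = 0.128) did not pass, and Foxa2, Afp and Ttr were not tested. The summed level of the 9 was 3.645 to 9.348 TPM on feeders and 2.447 to 3.308 TPM on gelatin. Their part in the result was not tested.

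The beaded filaments of type VI showed a split inside the class. Col6a1, Col6a2 and Col6a3, the chains of the classical type VI protein, were 44.7-fold (5.48 ± 0.25, SE), 24.7-fold (4.63 ± 0.27) and 34.6-fold (5.11 ± 0.24) higher on feeders, with adjusted p-values of 4.95e-08, 2.57e-07 and 6.42e-08. Col6a1 had 124 to 244 counts on feeders, 6 and 12 counts in FL and 1 to 4 counts in KO. Col6a3 kept 8 to 13 counts in each gelatin library, at 0.0453 to 0.0627 TPM against 0.802 to 2.24 TPM on feeders. The ratio of Col6a1 to Col6a2, which are neighbours on chromosome 10, held between 3.12 and 3.87 in the 6 feeder libraries. Of the later-described chains, Col6a6 was 13.8-fold higher (3.78 ± 0.69, SE, adjusted p = 6.63e-04), while Col6a4 (0.21 ± 0.35, SE, adjusted p = 0.625) and Col6a5 (0.42 ± 0.42, SE, adjusted p = 0.411) did not pass. The fold of Col6a6 rests on few reads, with 5 and 0 counts in FL and 2, 0, 0 and 0 counts in KO. Over the fits that left out a library or collection, its log2 fold change ran from 3.28 to 6.16.

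The short-chain network collagens of type VIII, found around vessels and in the cornea, were both higher on feeders. Col8a1 was 78.5-fold higher (6.29 ± 0.50, SE, adjusted p = 1.77e-06), with 19 to 80 counts against 0 to 2. Col8a2 was 7.62-fold higher (2.93 ± 0.44, SE, adjusted p = 1.69e-04). Col7a1, the anchoring fibril of epithelia, was 6.20-fold higher (2.63 ± 0.19, SE, adjusted p = 1.07e-06), at 1.36 to 2.04 TPM against 0.196 to 0.347 TPM. All 3 genes had no overlap between the cultures.

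Of the fibril-associated collagens (FACIT), which decorate the surface of fibrils, 7 were tested and 3 were higher on feeders. Col12a1, a FACIT of tendon and other dense tissue, was 26.5-fold higher (4.73 ± 0.52, SE, adjusted p = 1.87e-05). Col16a1 was 9.35-fold higher (3.23 ± 0.29, SE, adjusted p = 4.09e-06). Its mean level was 0.449 TPM on feeders, 0.109 TPM in FL and 0.0265 TPM in KO, so this fold averages unlike gelatin groups. Col20a1 was 2.39-fold higher (1.26 ± 0.37, SE, adjusted p = 0.0115), and lost the call without the third collection (1.01, adjusted p = 0.065), against FL alone (0.998, adjusted p = 0.0587) and with BRE-negative libraries alone (0.91, adjusted p = 0.0938). Col9a3 (0.53 ± 0.28, SE, adjusted p = 0.12), Col14a1 (-0.29 ± 0.67, SE, adjusted p = 0.725) and Col22a1 (-0.0041 ± 0.27, SE, adjusted p = 0.991) did not pass. The value of Col22a1 averages unlike gelatin groups. It was at 0.339 to 0.851 TPM on feeders, 0.568 and 1.02 TPM in FL and 0.253 to 0.315 TPM in KO.

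Col9a2, a chain of the cartilage FACIT type IX, was 1.70-fold lower on feeders (-0.77 ± 0.15, SE, adjusted p = 0.00118), a value that averages unlike gelatin groups. The feeder libraries lay between 5.36 and 7.58 TPM, below both FL libraries (26.0 and 21.6 TPM) and above all 4 KO libraries (3.60 to 5.10 TPM). Against FL alone the log2 fold change was -1.95.

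Transmembrane collagens were called in both directions. Col13a1, found at cell adhesions and at the neuromuscular junction, was 11.8-fold higher on feeders (3.57 ± 0.25, SE, adjusted p = 7.49e-07). Its mean level was 2.84 TPM on feeders, 0.417 TPM in FL and 0.142 TPM in KO, so this fold too averages unlike gelatin groups. Col23a1 was 2.14-fold higher (1.10 ± 0.32, SE, adjusted p = 0.0105), and not so against FL alone (0.29, adjusted p = 0.58) or with BRE-positive libraries alone (0.80, adjusted p = 0.0574). Col17a1, the hemidesmosome collagen of basal epithelium, was 4.97-fold lower (-2.31 ± 0.25, SE, adjusted p = 1.42e-05), at 0.334 to 0.737 TPM on feeders, 1.91 and 3.14 TPM in FL and 1.41 to 2.75 TPM in KO. Col26a1, first described in testis and ovary, was 6.45-fold lower (-2.69 ± 0.26, SE, adjusted p = 6.32e-06), at 0.188 to 0.323 TPM on feeders, 1.96 and 1.32 TPM in FL and 1.04 to 1.63 TPM in KO. For both genes all gelatin libraries were above all feeder libraries. Col18a1 was 1.4-fold higher on feeders (0.49 ± 0.06, SE, adjusted p = 4.85e-05).

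Feeder fibroblast markers moved in the same direction as the 23 collagens: of 16 tested, 16 were higher on feeders, with a median log2 fold change of 4.94 and among them Mmp2 (10.4-fold), Bgn (166-fold), Lox (231-fold) and Fstl1 (3.83-fold). In these bulk libraries, fewer cells of a type and less RNA per cell cannot be told apart, and the part of feeder cells in each collagen's level was not tested. Without the first collection 22 collagens were higher and 4 lower, without the third 21 and 4.

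**Figure D2:**
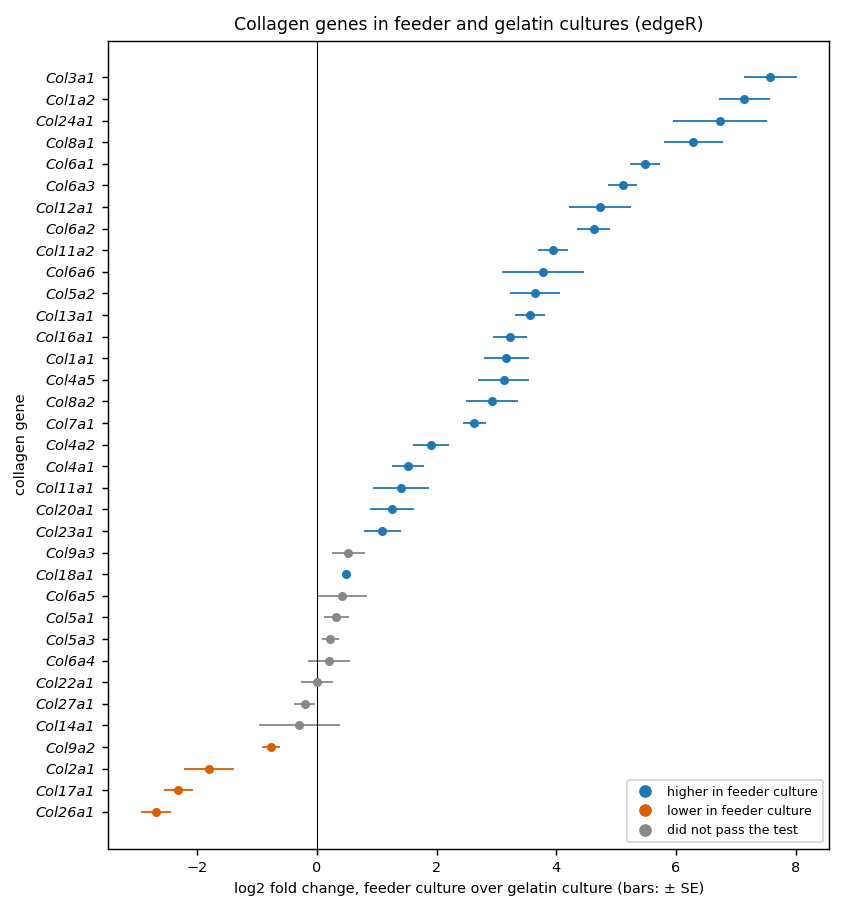
Log2 fold change of the 35 tested collagen genes, feeder culture over gelatin culture, from edgeR; bars are ± SE and the fitted value of Col24a1, at 0 gelatin counts, depends on the prior count. The 23 genes higher on feeders run from Col18a1 at 0.49 to Col3a1 at 7.58, and Col9a2, Col2a1, Col17a1 and Col26a1 lie to the left.

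Enzymes and partners of collagen were called in both directions between the cultures, as were all genes (31.5% higher and 31.7% lower on feeders). The counts below are to be read beside those shares. Of 33 tested genes for collagen synthesis, folding and crosslinking, 17 were higher and 8 lower on feeders. The calls with the smallest adjusted p were Loxl3, a crosslinking oxidase (19.8-fold higher, adjusted p = 8.58e-08), Bmp1, the C-propeptide protease (11.6-fold higher, adjusted p = 1.77e-07), Fkbp10, a collagen chaperone (8.80-fold higher, adjusted p = 2.75e-07), and Pcolce2, an enhancer of propeptide cleavage (3.28-fold lower, adjusted p = 7.72e-07). Of 7 tested receptors 3 were higher, the integrin chains Itga11 (4.90-fold) and Itgb1 (1.48-fold) and the uptake receptor Mrc2 (2.87-fold, adjusted p between 7.36e-05 and 4.27e-04). Of 9 tested genes of collagen breakdown 7 were higher, among them the protease genes Mmp2 and Mmp14 (2.42-fold) and the inhibitor Timp2 (9.79-fold), and 1 was lower, the inhibitor Timp1 (3.13-fold). Of 11 other basement membrane components 7 were higher, among them Lama4 (17.5-fold), Hspg2 (3.55-fold), Lamb1 (3.29-fold) and Agrn (1.36-fold), and 1 was lower, Nid2 (1.17-fold).

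The second comparison set BRE-positive against BRE-negative cells of the same collection, which asks whether collagen RNA differs with the activity of the BMP reporter. Of 35 collagen genes tested, 2 were lower in BRE-positive cells, 0 were higher and 33 did not pass edgeR's test with the pair as a block. The 2 are 5.71% of the collagens tested, against 2.97% of all genes (1.96% higher, 1.02% lower). At an unadjusted p under 0.05 there were 11 lower and 4 higher (31.4% and 11.4%), against 8.33% and 9.92% of all genes. DESeq2 called 1 lower and 0 higher of the 22 collagens to which it gave an adjusted p, against 1% lower and 1.72% higher over all genes. The median log2 fold change was -0.09 over the collagens and -0.0009 over all genes.

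Col1a2 was 1.39-fold lower in BRE-positive cells (-0.48 ± 0.11, SE, adjusted p = 0.0279). Its log2 ratio within the pairs was -0.98, -0.19 and -0.45, so it was lower in 3 of 3 pairs and most so in the first collection. Without each pair in turn it stayed between -0.67 and -0.30 and passed each time. Its gene lies on chromosome 6 at 4504814 to 4541544 (plus strand). Col12a1, on chromosome 9 at 79598991 to 79718831 (minus strand), was 1.44-fold lower (-0.53 ± 0.12, SE, adjusted p = 0.028), at 0.324, 1.86 and 2.31 TPM in BRE-negative and 0.258, 1.64 and 1.41 TPM in BRE-positive. The first collection was lowest in both fractions and the third pair differed most. Without the third pair Col12a1 did not pass (-0.32, adjusted p = 0.499), nor did it with DESeq2 (-0.52, adjusted p = 0.0636).

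The collagens that did not pass had values of both signs: over all 35 tested, 19 were below 0 and 16 above. Those nearest to the threshold with negative values, and the type I and III genes, were Col6a1 (-0.43, adjusted p = 0.062), Col6a3 (-0.38, adjusted p = 0.0641), Col3a1 (-0.42, adjusted p = 0.136) and Col1a1 (-0.24, adjusted p = 0.259). Col3a1 had pair ratios of -0.98, 0.03 and -0.52, and passed when the second pair was left out (-0.73, adjusted p = 9.91e-05). Of the genes with positive values, those nearest to the threshold were Col11a2 (0.46, adjusted p = 0.0629) and Col17a1 (0.73, adjusted p = 0.109), each above 0 in 3 of 3 pairs. Without the first pair Col11a2 (0.64, adjusted p = 1.68e-05) and Col20a1 (1.06, adjusted p = 4.87e-04) were called higher. In that fit 1115 of 15441 genes were called higher, against 302 of 15435 with all 3 pairs. Of 3 tested chondrocyte markers Matn1, a cartilage matrix protein, was higher in BRE-positive cells (0.98 ± 0.22, SE, adjusted p = 0.0294). Of the basement membrane genes, Col4a1 (0.03 ± 0.06), Col4a2 (0.08 ± 0.09) and Col18a1 (-0.09 ± 0.05, log2 fold change, SE) had values near 0, with adjusted p between 0.409 and 0.856. Col4a5 (-0.54 ± 0.22, SE, adjusted p = 0.207) was negative in 3 of 3 pairs and did not pass.

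Part of the feeder fibroblast markers that are not collagens were called in the same direction as Col1a2 and Col12a1. Of 16 tested, 5 were lower in BRE-positive cells and 0 higher: Acta2 (-1.12 ± 0.17, SE), Fbln2 (-0.41 ± 0.07), Cdh11 (-0.65 ± 0.16), Lox (-0.54 ± 0.13) and Tagln (-0.57 ± 0.14), with adjusted p between 0.00357 and 0.0495. Over all genes 1.02% were called lower and 1.96% higher. At an unadjusted p under 0.05, 9 of the markers were lower and 0 higher, against 8.33% and 9.92% of all genes. DESeq2 called 2 markers lower and 0 higher, against 1% and 1.72% of all genes. Thy1 (0.25 ± 0.13, SE, adjusted p = 0.317) and Pdgfrb (0.02 ± 0.15, SE, adjusted p = 0.955) had positive values and did not pass. Lox, which crosslinks collagen, was the 1 call among 33 genes of collagen synthesis. The part of feeder cells in the lower Col1a2 and Col12a1 levels was not tested.

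**Figure D3:**
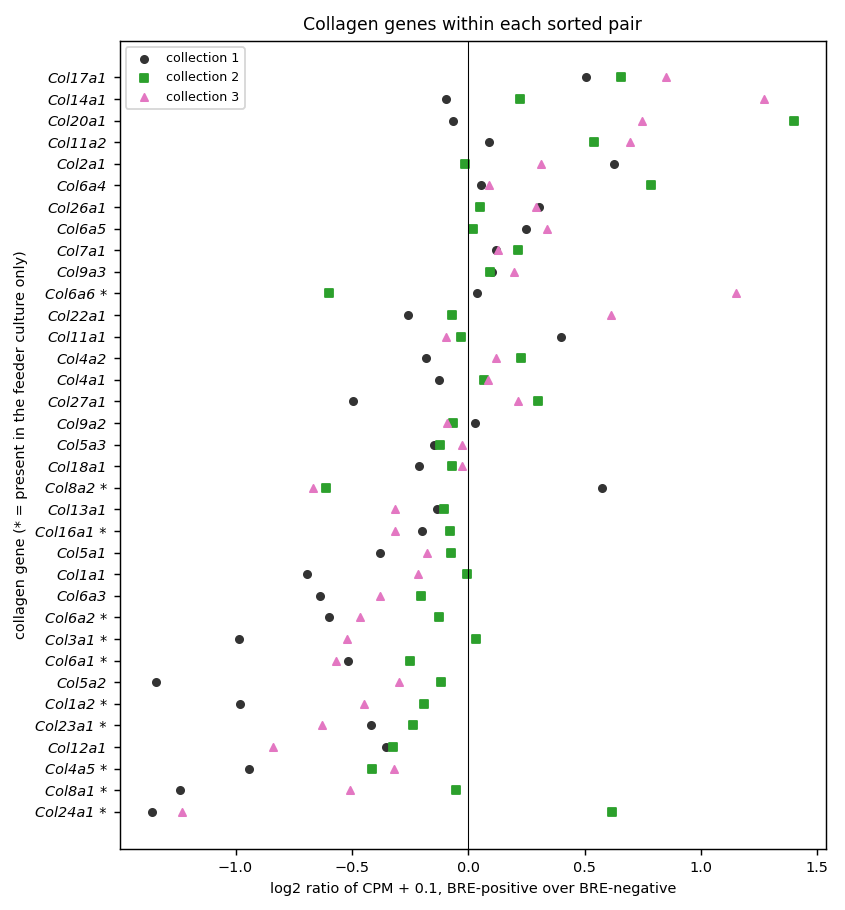
Log2 ratio of CPM + 0.1 (CPM: counts scaled by library size), BRE-positive over BRE-negative, for the 35 tested collagen genes, 1 point per collection; genes are ordered by fitted log2 fold change and an asterisk marks those present on feeders only. Col1a2 and Col12a1 lie left of 0 in all 3 collections, and the first collection has the most negative ratio for Col1a2, Col3a1 and Col5a2.

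The third comparison set KO against FL cells, both in 2i + Lif on gelatin, which asks what loss of Smad1 and Smad5 does to collagen RNA without feeders. Of 27 collagen genes tested, 4 were lower in KO, 0 were higher and 23 did not pass. The 4 are 14.8% of those tested, against 5.03% of all genes (1.85% higher, 3.18% lower). At an unadjusted p under 0.05 there were 7 lower and 2 higher (25.9% and 7.41%), against 11.8% and 11.1% of all genes. DESeq2 called 3 lower and 0 higher (11.1% lower), against 5.3% lower and 4.1% higher over all genes. The median log2 fold change was -0.49 over the collagens and 0.01 over all genes. The 4 were the FACIT genes Col9a2, Col16a1 and Col22a1 and the transmembrane gene Col13a1.

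Col9a2 gave the firmest call of the 4. It had 1338 and 1184 counts in FL and 232, 262, 193 and 226 counts in KO, or 23.8 ± 3.09 TPM (SD, n = 2) and 4.54 ± 0.671 TPM (SD, n = 4). The groups were far apart and each was tight. It was 5.13-fold lower in KO (-2.36 ± 0.16, SE, adjusted p = 0.00607). It failed the threshold without FL replicate 1 (-2.20, adjusted p = 0.0595), where 0 of all genes passed, and kept it without each of the other 5 libraries. Its log2 fold change over the alternatives ran from -2.52 to -2.16. Col9a3, another chain of type IX, did not move with it: it was at 0.566 and 0.901 TPM in FL and 0.739 to 1.34 TPM in KO (0.49 ± 0.32, SE, adjusted p = 0.391). The ratio of Col9a2 to Col9a3 was 45.9 and 24.0 in FL and between 3.68 and 7.30 in all other libraries. Part of Col9a3 overlaps Tcfl5 on the opposite strand (6.073% of its exon bases), and whether the counting used strand is unknown here. Col9a1, the third chain of type IX, had at most 5 counts in any library.

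Col22a1, a collagen of tissue junctions, was at 0.568 and 1.02 TPM in FL and 0.289, 0.277, 0.253 and 0.315 TPM in KO (2.78-fold lower, -1.48 ± 0.27, SE, adjusted p = 0.0284). The FL libraries were uneven, and both lay above the 4 KO libraries. Col16a1 had 22 and 15 counts in FL and 4, 2, 5 and 3 counts in KO (4.81-fold lower, -2.27 ± 0.46, SE, adjusted p = 0.0362). Col13a1 had 39 and 45 counts in FL and 12, 19, 14 and 8 counts in KO (2.95-fold lower, -1.56 ± 0.32, SE, adjusted p = 0.0363). None of these 3 genes overlapped between the groups, while both FL libraries were the 2 highest on gelatin for 20.8% of all genes compared. All 3 genes rest on few reads. Each lost its call in 5 of the 6 fits that left out 1 library, with adjusted p up to 0.223 for Col13a1, 0.166 for Col22a1 and 0.312 for Col16a1. With the replicate number as a block 0 of all genes tested passed, these 4 included (adjusted p = 0.0689 for Col9a2 and 0.17 to 0.214 for the others).

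Stretches before the annotated start of 3 of these genes are shown because the comparison removes transcription factors of the BMP pathway (RefSeq windows on GRCm38.p6, cut to the bases outside any annotated exon). Capitals mark matches to GGCGCC, a GC-rich motif known to bind SMAD1 and SMAD5 and equal to its own reverse complement, or to TATAAA (reverse TTTATA).
Col9a2: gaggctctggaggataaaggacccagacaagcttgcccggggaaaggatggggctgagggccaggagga
Col16a1: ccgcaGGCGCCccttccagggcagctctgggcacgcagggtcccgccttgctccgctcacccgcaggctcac
Col13a1: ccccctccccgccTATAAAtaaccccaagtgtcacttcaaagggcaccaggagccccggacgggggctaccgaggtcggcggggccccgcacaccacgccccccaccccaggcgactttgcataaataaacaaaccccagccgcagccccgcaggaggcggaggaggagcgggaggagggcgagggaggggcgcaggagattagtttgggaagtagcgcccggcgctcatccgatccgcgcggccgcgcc
The Col9a2 stretch is chr4:121039316-121039384 (plus strand) and holds neither motif. The Col16a1 stretch is chr4:130047590-130047661 (plus strand), 75.0% G and C, with 1 GGCGCC. The Col13a1 stretch is chr10:61979109-61979358 (minus strand), 68.8% G and C, with 1 TATAAA and 24 CG pairs. In the full windows of 250 bases before the start, matched for 35 of the 44 genes, GGCGCC was found in 4 genes and TATAAA in 5. Of all 32851 windows 9.586% hold GGCGCC and 12.368% hold TATAAA. A match is no evidence of binding.

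Of the genes that did not pass, Col23a1 (-1.60 ± 0.44, SE, adjusted p = 0.08), Col12a1 (-1.38 ± 0.47, SE, adjusted p = 0.135) and Col4a5 (-1.96 ± 0.70, SE, adjusted p = 0.145) had the negative values nearest to the threshold, and for each both FL libraries were the 2 highest on gelatin. Both FL libraries were the 2 highest for 20.8% of all genes compared. These collagens rest on few reads: Col4a5 had 12 and 12 counts in FL and 4, 3, 0 and 4 counts in KO. Col4a1 (-0.37 ± 0.31, SE, adjusted p = 0.507), Col4a2 (-0.64 ± 0.37, SE, adjusted p = 0.342) and Col1a1 (-0.56 ± 0.42, SE, adjusted p = 0.464) had negative values that turned positive without FL replicate 1 (0.30, 0.09 and 0.16). Col5a3 (0.41 ± 0.15, SE, adjusted p = 0.144) and Col18a1 (0.16 ± 0.06, SE, adjusted p = 0.186) had positive values. The 17 genes that were not tested, Col1a2 and Col3a1 among them, had too few reads for the filter.

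**Figure D4:**
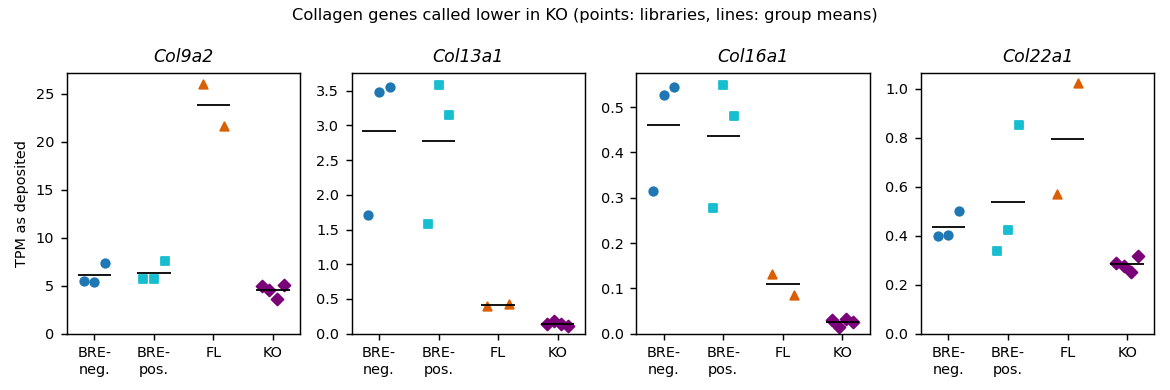
Deposited TPM of Col9a2, Col13a1, Col16a1 and Col22a1 by group, 1 point per library, with lines at the group means and a separate axis per gene. In each panel both FL points lie above the 4 KO points, an order found for 20.8% of all genes compared. For Col9a2 the KO libraries sit just below the feeder libraries at 5.36 to 7.58 TPM.

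Partner genes of collagen were called lower in KO in 2 lists and not called in the other 2, beside 3.18% lower and 1.85% higher over all genes. Of 31 tested genes of collagen synthesis 4 were lower and 0 higher (1 higher and 10 lower at an unadjusted p under 0.05, 0 and 7 by DESeq2). Serpinh1, the collagen chaperone of the endoplasmic reticulum, was at 88.7 and 79.0 TPM in FL and 44.9, 24.98, 32.5 and 35.3 TPM in KO (2.38-fold lower, -1.25 ± 0.19, SE, adjusted p = 0.0168). The other 3 were the propeptide protease Adamts14 (-1.32 ± 0.15, SE, adjusted p = 0.00799) and the crosslinking enzymes Loxl1 (-1.71 ± 0.34, adjusted p = 0.0338) and Loxl2 (-2.51 ± 0.56, adjusted p = 0.0461). Of 6 tested receptors 2 were lower, the collagen-binding kinase Ddr2 (-2.03 ± 0.34, SE, adjusted p = 0.02) and Mrc2 (-1.64 ± 0.33, SE, adjusted p = 0.0352), and 0 higher, as by DESeq2. The 6 tested breakdown genes held 0 calls in edgeR and in DESeq2, and 2 were lower at an unadjusted p under 0.05. The 10 tested basement membrane components other than collagens held 0 calls in edgeR, with 2 higher and 2 lower at an unadjusted p under 0.05, and DESeq2 called 1 higher.

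Marker lists of other cells in the KO comparison were mostly not called. The 7 tested feeder fibroblast markers held 0 calls (2 lower at an unadjusted p under 0.05, 0 by DESeq2), as did 6 primitive endoderm markers (1 higher and 1 lower, 0 by DESeq2). Of 3 tested chondrocyte markers Acan, the cartilage proteoglycan, was lower (2.32-fold, adjusted p = 0.0339), while the cartilage regulator Sox9 had at most 3 counts in a gelatin library. Of 4 tested endothelial markers Flt1 was lower (6.17-fold, adjusted p = 0.0363). Of 5 embryonic stem cell markers Nanog was lower (1.52-fold, adjusted p = 0.00613). The part of other cell types in the 4 collagen calls was not tested.

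On gelatin, FL replicate 1 and KO replicate 2 were the 2 highest libraries for 8 of the 27 tested collagens (29.6%), against 4.89% of 15818 genes compared. This was noticed after the values were seen and is a description. The 8 were Col2a1, Col4a1, Col4a2, Col5a1, Col6a5, Col11a1, Col14a1 and Col26a1. Both FL libraries were the 2 highest for 7 collagens (25.9%, against 20.8% of all genes), and KO replicates 3 and 4 for 2 (7.41%, against 26.6%). Col4a2, for example, was at 2.79 TPM in FL replicate 1 and 1.73 TPM in KO replicate 2, and at 0.921 to 1.27 TPM in the other 4 gelatin libraries. Which parental line each library came from is not given, so whether this order follows the lines was not tested.

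**Figure D5:**
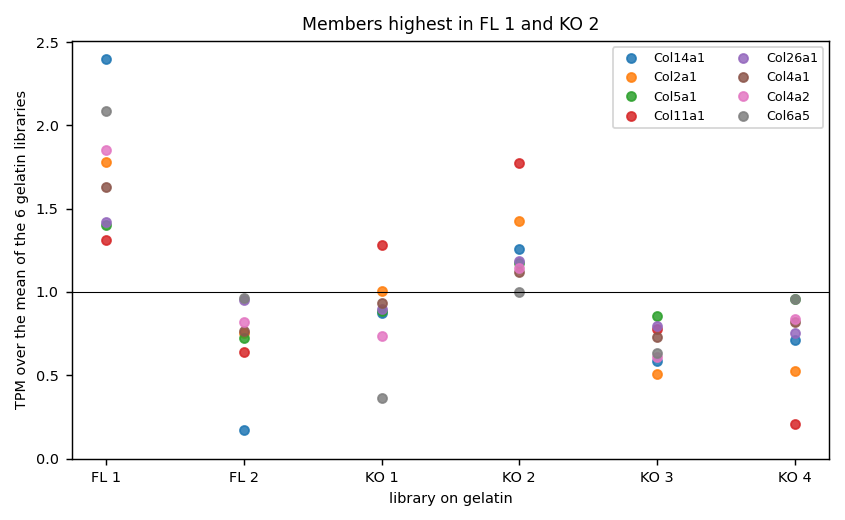
TPM of 8 collagen genes divided by the mean of the 6 gelatin libraries (1 point per gene and library; line at 1), chosen because FL 1 and KO 2 are their highest libraries. All 8 genes lie above the mean in FL 1, and Col14a1 lies highest there and lowest in FL 2.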

How the data were processed

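RNA was measured in 12 libraries made from total RNA with a stranded kit after ribosomal RNA removal, per the labels' protocols. Per the submitters' processing notes, reads were handled with STAR 2.4.1d, featureCounts 1.4.6, CASAVA 1.8.2, DESeq2 1.6.3 and FastQC 0.11.3 on mm10 (GRCm38.p4). For strand setting and annotation release: not given in the sources used here. The authors deposited raw counts for 39179 genes and a TPM table, whose values are a scaled signal. The deposited TPM equals (count + 1) divided by a length and scaled per library (largest relative difference 6.99e-15). It holds 38310 unique genes, each used once.

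Counts were tested as deposited with edgeR 4.0.16 (R 4.3.3): quasi-likelihood fit, TMM scaling, edgeR's expression filter (minimum count 10, total 15), and Benjamini-Hochberg adjustment over all genes with a threshold of 0.05. Standard errors come from the fold change and its F statistic. The reporter fit was blocked by pair, since collection in pairs is stated. Same-numbered reporter libraries deviated together (correlation across genes 0.778, 0.72 and 0.675, and -0.592 to 0.0683 for different numbers). The KO fit had no block. Alternatives were DESeq2 1.42.0, limma 3.58.1 on log2(TPM + 1) or log2(TPM + 0.1), RLE scaling, no filter, length offsets, other blocks and leaving out libraries. Library totals (25862573 to 37319846 counts) limit precision for collagens with few reads. Samples are called biological replicates but separate cultures are not described, so the p-values cover only the spread among these libraries.

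The naming rule itself used no measured value, but the family and the lists were chosen with earlier results of these data known. Named genes were the members called in any comparison, the 5 highest per culture, Col1a1, Col1a2, Col3a1, Col4a1, Col4a2 and Col18a1, and up to 4 called genes per other list. Others, such as Col4a5 and Col23a1 where not called, Col4a6, Col9a3, Col6a4 and the genes near the threshold between the sorted fractions, were named after their values were seen. Coordinates (1-based) are from GENCODE M21 of GRCm38, and promoter windows from RefSeq on GRCm38.p6.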

Additional observations from a re-analysis of the deposited data

Results flagged for a closer look

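Among the 27 collagens looked at in the 4 KO libraries, 1 had a library far from the others. Col18a1 was at 53.9 TPM in KO replicate 2, against 60.1 to 60.9 TPM in the other 3, a gap of 0.882 of the range, beyond the 95% critical value of Dixon for 4 samples. Chance flags about 1 in 20 such groups. The FL libraries were at 54.2 and 53.5 TPM.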

How the results depend on the processing

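The culture comparison kept between 21 and 26 collagens higher and 4 or 5 lower under all alternatives run, and of 537 values of single called or listed genes 530 kept their direction and side of the threshold (7 lost it, those of Col11a1, Col20a1 and Col23a1). Without a count filter the median of all genes there was 0.114. For the sorted fractions, the count lower (2) was 1 with DESeq2, 6 without a count filter, 0 with limma on log2(TPM + 1), on log2(TPM + 0.1) and on all genes of the TPM table, 0 without the replicate block (where 0 of all genes passed) and 0 with all 12 libraries in 1 fit without that block. It ranged from 2 to 6 when pairs were left out. The count higher (0) was 2 without a count filter and 0 to 2 when pairs were left out. For KO against FL, the count lower (4) was 2, 1 and 2 with the 3 limma fits, 0 with the replicate block and 0 to 4 when libraries were left out (0 without FL replicate 1). FL and KO numbers were not seen to pair the libraries. In deviations from the group means, FL replicate 1 correlated at 0.331, 0.509, -0.497 and -0.465 with KO replicates 1, 2, 3 and 4. With only 2 FL libraries, FL replicate 2 must show the same values with the opposite sign, so it adds no evidence. Values that changed sign were small or uncalled: Col18a1 between the fractions (0.0010 in the limma fits), Col4a1 (-0.010 to 0.087 over the fits without a pair), Col4a2 (-0.0045 to 0.18), and, over the KO fits without a library, Col1a1 (-1.06 to 0.16), Col4a1 (-0.84 to 0.30) and Col4a2 (-1.14 to 0.091), each above 0 without FL replicate 1. Over all genes, the 459 calls between the fractions became 2225 without the first pair, 200 without the third and 1010 without a filter, and the 801 calls of the KO comparison became 1498 with DESeq2 and 493 with limma on log2(TPM + 1). Apart from fewer samples or genes, the causes were not tested. Depth limits Col16a1, Col13a1, Col24a1 and the type I, III and VI genes on gelatin, which rest on few reads.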
